A study of Mus musculus with 40 samples.

Results

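The 44 genes described here code for collagen chains and were followed through 40 mouse retinas. They were chosen by symbol, as all rows whose name reads Col, a number, the letter a and a number, which gave 44 of 42037 gene symbols, and 4 rows that mark a further copy of such a symbol were left out. Whole retinas came from C57BL/6J mice at postnatal days 17 (P17) and 19 (P19), 4 retinas in each of 10 groups, and their RNA was sequenced. Of the groups at each age, 4 came from pups with oxygen-induced retinopathy (OIR): they breathed 75% oxygen from P7 to P12, went back to room air, and at P14 received 1 µl of antibody into the vitreous. The agents were a bispecific antibody against VEGFA and ANG-2 (named B20.4.1_LC10), anti-ANG2 (named LC10), anti-VEGFA (named B20.4.1) and control IgG. The bispecific antibody and IgG were at 0.4 µg/µl, and both single antibodies at 0.2 µg/µl. The remaining group at each age came from control mice without OIR. Whether the control mice received an injection is not given in the labels, so oxygen, injection and IgG cannot be told apart in the comparison of OIR with control. The labels call the 4 samples of a group independent and each is 1 whole retina, but do not say whether they came from separate mice or litters, so p-values measure the spread between these retinas.

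Collagen chains wind around each other into helices that assemble outside the cell. Fibril-forming chains such as those of types I, II and III build the fibrils of sclera, skin, cartilage and vitreous, and FACIT chains such as those of type IX coat fibrils without forming them. Type IV chains form the sheet of basement membranes, in the retina those of vessels and of the inner limiting membrane, and type VIII chains form hexagonal networks such as that of Descemet's membrane of the cornea. In OIR the retina first loses capillaries and then grows abnormal vessels towards the vitreous, and each new vessel needs a basement membrane. Whole retina mixes many cell types, and in such bulk RNA fewer cells of a type and less RNA per cell cannot be told apart.

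Total expected counts per library ran from 9155091 to 25835055. The 8 rod photoreceptor markers summed to 31290 to 84470 CPM (read counts scaled to a common library size) per library. Markers of neighbouring tissue were unequal between retinas: the 10 pigment epithelium markers summed to 621 to 3086 CPM and the 11 lens markers to 3.07 to 4688 CPM. Whether tissue carried along or expression within the retina made these differences was not tested. On log2(CPM + 1) of the genes with a mean above 3 on that scale, 4 libraries correlated with the rest by a mean r under 0.92. They were retina 3 of control P17, retina 3 of anti-VEGFA P19, retina 1 of anti-ANG2 P19 and retina 3 of bispecific P19. Y-linked counts were 0 in all 4 retinas of bispecific P19 and of anti-ANG2 P17, and present in all 4 of IgG P19 and of anti-VEGFA P17, so sex was not balanced.

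The collagen transcripts of the retina were led by the FACIT chain Col9a1. On the length-scaled TPM scale, on which levels of different genes can be compared, its median over 40 retinas was 66.5 TPM (21.5 to 171). Col9a3, another chain of type IX, followed at 27.3 TPM, then Col23a1, a transmembrane collagen, at 25.5 TPM, and Col2a1, the only chain of type II and the main fibril collagen of vitreous and cartilage, at 21.3 TPM. Col6a1, of the beaded filaments of type VI, stood at 18.6 TPM, and Col8a1 at 12 TPM. These were the 6 chains with a median of at least 10 TPM, and neighbours in that order overlapped widely in their range over retinas. The single chain Col9a1 made up 27.9% of all collagen TPM in the median retina, the top 4 chains 61.2% and the top 10 chains 84.6%.

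**Figure D1:**
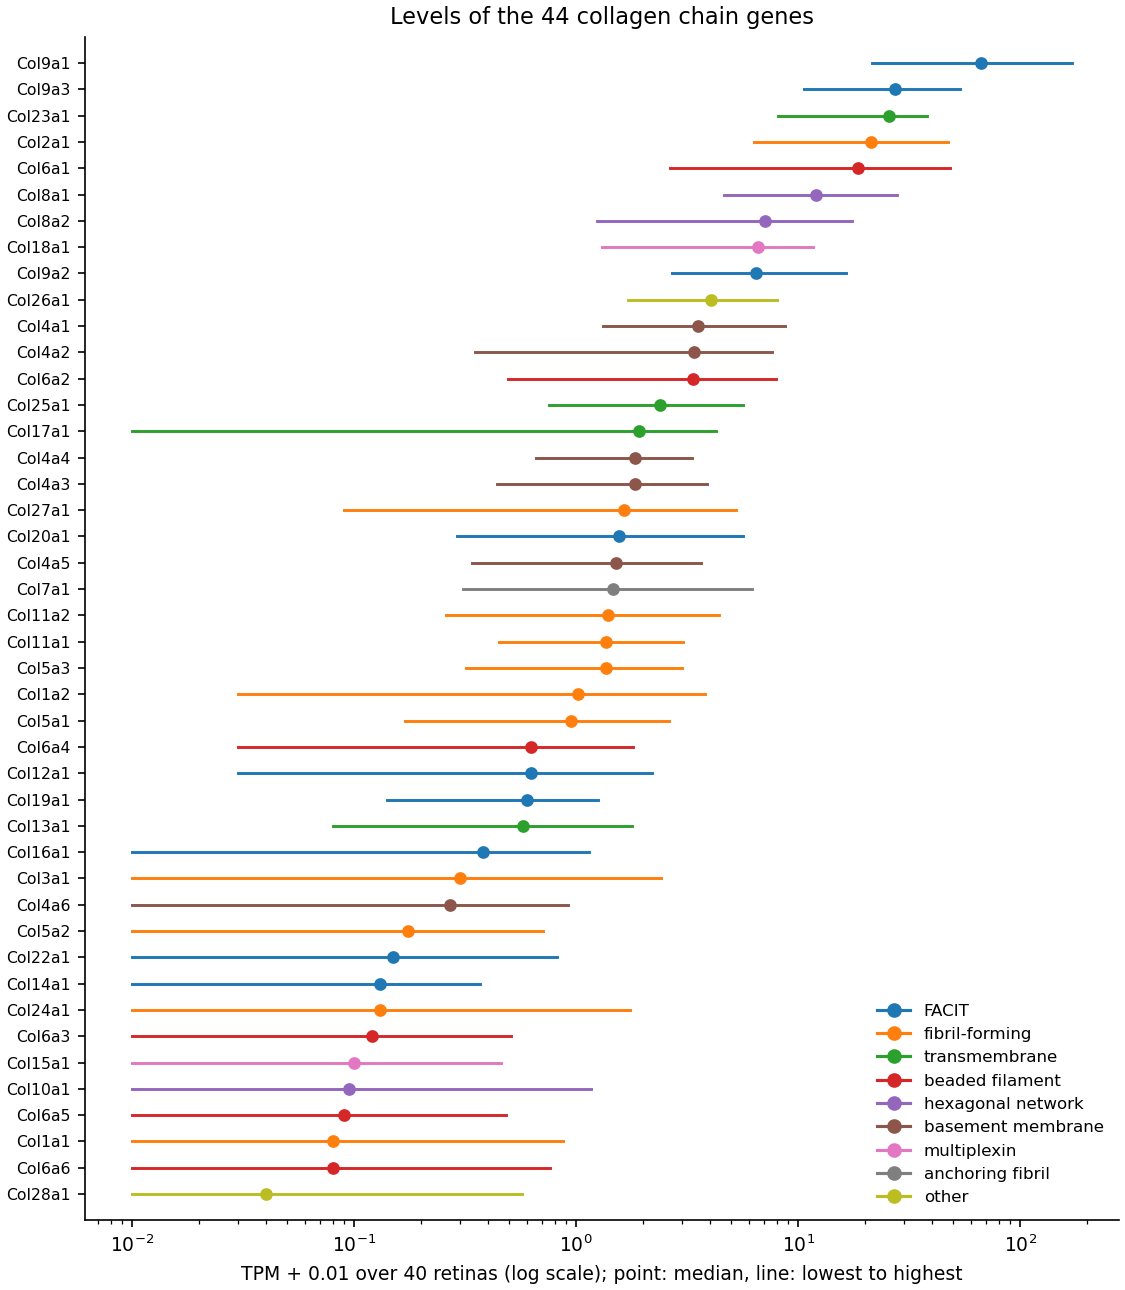
Levels of the 44 collagen chain genes on a log axis (TPM + 0.01), 1 row a gene, ordered by the median over 40 retinas (point) with the lowest and highest retina as the ends of the line; colour marks the collagen class. Col9a1 stands at the top at 66.5 TPM and 6 chains lie under 0.1 TPM.

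By class, the 9 FACIT chains held a median of 44.3% of the summed collagen TPM, the 11 fibril-forming chains 12.4%, the 4 transmembrane chains 12.1%, the 6 beaded filament chains 9.5%, the 3 hexagonal network chains 8.7% and the 6 basement membrane chains 5.2%. Among the chains of vessel and inner limiting membranes, Col4a1 had a median of 3.52 TPM and Col4a2 3.37 TPM, and Col18a1, the source of the fragment endostatin, 6.59 TPM. The major chains of connective tissue lay lower, with Col1a2 at 1.005 TPM (rank 25 of 44), Col3a1 at 0.29 TPM (rank 32) and Col1a1 at 0.07 TPM (rank 42). In all, 25 of 44 chains had a median of at least 1 TPM, 6 lay under 0.1 TPM, and 15 were listed at 0 in at least 1 retina, Col28a1 in 17. The summed collagen TPM ran from 78.9 to 418 over the 40 retinas, with means of 250 ± 41.3 TPM in OIR with IgG and 335 ± 67.9 TPM in control retinas at P17 (SD, n = 4 each). The FACIT chains alone averaged 116 ± 22.3 TPM in OIR with IgG and 198 ± 28.3 TPM in control retinas (SD, n = 4 each). Control retina 3, 1 of the 4 libraries of low correlation, held the highest sum of all, and without it the control means were 306.8 ± 47.6 TPM over all chains and 189 ± 27.1 TPM over the FACIT chains (SD, n = 3). At P19 the sums over all chains were 229.6 ± 70.5 TPM in OIR with IgG and 222 ± 31.4 TPM in control retinas, and those of the FACIT chains 112 ± 34.1 TPM in OIR with IgG and 96.7 ± 16.3 TPM in control retinas (SD, n = 4 each). All 44 chains passed the filter on low counts, so every member was tested.

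Col9a1 lies at chr1:24177610-24252684 of GRCm38, on the plus strand. In chick and mouse the gene is known to be read from an upstream and a downstream promoter, which give a long form and a short form without the amino-terminal globular domain. RefSeq's promoter table for GRCm38.p6 (250 bases before to 50 after each start) held 38 windows for 35 of the 44 chains, among them 2 for Col9a1, which lie 17593 bases apart on the plus strand. They are shown because Col9a1 was the most abundant chain and gave the most calls below; the deposited values are sums over the gene and do not separate the forms. Capitals mark matches, on either strand, to any of 6 motifs: the hypoxia response core ACGTG, the GC box GGGCGG, the CCAAT box, the TATA box TATAAA, the SOX core ACAAAG and the AP-1 site TGAGTCA.
Col9a1 upstream window, chr1:24177360-24177659: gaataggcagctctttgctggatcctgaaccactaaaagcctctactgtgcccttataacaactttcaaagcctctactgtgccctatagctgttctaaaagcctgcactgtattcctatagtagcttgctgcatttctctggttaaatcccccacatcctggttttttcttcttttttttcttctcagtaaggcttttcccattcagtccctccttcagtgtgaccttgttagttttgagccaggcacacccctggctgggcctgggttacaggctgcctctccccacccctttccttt
Col9a1 downstream window, chr1:24194953-24195252: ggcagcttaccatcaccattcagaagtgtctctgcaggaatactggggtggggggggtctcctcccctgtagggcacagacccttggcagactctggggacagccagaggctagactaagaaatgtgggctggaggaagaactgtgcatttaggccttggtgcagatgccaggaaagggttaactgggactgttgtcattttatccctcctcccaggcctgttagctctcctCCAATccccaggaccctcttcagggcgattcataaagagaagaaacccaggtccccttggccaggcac
The upstream window held no CpG and no match to the 6 motifs, and the downstream window held 1 CpG and 1 CCAAT. Of 32841 promoter windows of the same length, 37.4% held CCAAT, 35.7% the GC box, 19.6% the hypoxia response core, 18.7% the SOX core, 13.6% the TATA box and 5.2% the AP-1 site, and the median window held 7 CpGs. Among the 38 collagen windows, 13 held CCAAT, 23 the GC box, 5 the hypoxia response core, 5 the SOX core, 5 the TATA box and 1 the AP-1 site. These matches describe letters in the windows only.

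The first comparison sets OIR with IgG against control retinas and asks which collagen chains differ in the diseased eye. At P17, Col9a1 was lower and Col2a1 higher in OIR, in opposite directions although their chains meet in the same vitreous fibril. Col9a1 had 201, 125, 196 and 166 CPM in OIR with IgG, against 272, 335, 226 and 258 CPM in control retinas. All 4 OIR retinas lay below all 4 control retinas. The means were 172 ± 34.9 and 273 ± 45.8 CPM (SD, n = 4 each), a log2 fold change of -0.67 ± 0.19 (SE) with an adjusted p of 0.043 (edgeR's quasi-likelihood test, Benjamini-Hochberg over all 23495 genes tested). Col2a1 (chr15:97975602-98004695, minus strand) had 138, 93.9, 105 and 143 CPM in OIR with IgG, against 54.2, 71.3, 57.6 and 83.1 CPM in control retinas. Here all 4 OIR retinas lay above all 4 control retinas. Its means were 119.9 ± 24 and 66.5 ± 13.3 CPM (SD, n = 4 each), with a log2 fold change of 0.85 ± 0.24 and an adjusted p of 0.046. These 2 calls among 44 chains compare with 2.36% of all genes called in the same comparison. Over the list, 21 chains had a positive and 23 a negative log2 fold change, with a median of -0.02 against -0.05 for all genes.

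Both calls lay near the threshold of 0.05. Col2a1 lost its call without any single one of the 8 retinas (adjusted p 0.053 to 0.21, log2 fold change 0.76 to 0.97). Col9a1 kept its call without IgG retina 1 (adjusted p 0.036) and lost it without any of the other 7 (adjusted p up to 0.2, log2 fold change -0.76 to -0.55 over all 8). A further measurement moved with the difference: the 6 ciliary body markers summed to 9.9 to 34.3 CPM in OIR with IgG and 24.4 to 78.2 CPM in control retinas at P17, and each of the 6 was above 0 in at least 1 retina of both groups. Opticin (Optc), a small proteoglycan that the ciliary body secretes into the vitreous, led that list in each control retina, at 10.14 to 35.29 CPM. In OIR with IgG it had 2.025 to 10.25 CPM, and Wfdc1 or Mfap4 stood above it in each retina. With the mean of these markers as a covariate the log2 fold changes were -0.61 for Col9a1 (adjusted p 0.18) and 0.94 for Col2a1 (adjusted p 0.076). The bipolar cell markers, 7 in all, summed to 950.4 to 1163 CPM in OIR with IgG and 1024 to 1318 CPM in control retinas. The part of bipolar cells in the result was not tested.

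**Figure D2:**
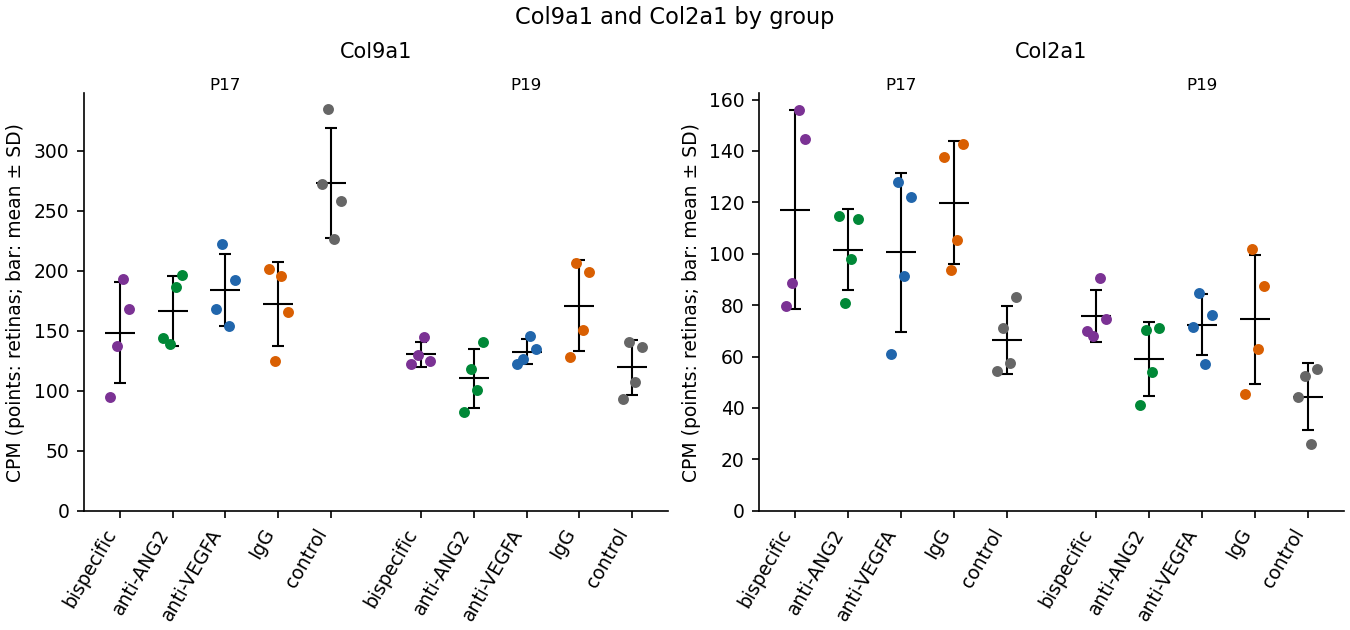
Col9a1 (left) and Col2a1 (right) in CPM by group at P17 and P19; points are single retinas and bars the mean ± SD of 4. The 4 control retinas at P17 hold the highest Col9a1 values, 226 to 335 CPM, above all other 36 retinas.

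At P19 neither chain was called and Col9a1 stood the other way. It had 128, 206, 150.5 and 199 CPM in OIR with IgG, against 92.7, 141, 108 and 136 CPM in control retinas (log2 fold change 0.52 ± 0.19, adjusted p 0.19). Col2a1 had 45.6, 102, 62.9 and 87.4 CPM in OIR with IgG, against 44.4, 52.4, 25.9 and 55.1 CPM in control retinas (log2 fold change 0.74 ± 0.24, adjusted p 0.13). In both chains the groups overlapped. The third of the smallest p-values belonged to Col27a1, a fibril-forming chain of cartilage, with 4.23, 3.04, 8.39 and 4.42 CPM in OIR with IgG and 11.2, 9.26, 10.1 and 12.4 CPM in control retinas (log2 fold change -1.10 ± 0.46, adjusted p 0.28). Of the 44 chains 0 were called at P19 by edgeR and 0 by DESeq2, while edgeR called 0.919% of all genes. Before adjustment 4 chains had p under 0.05, against 12.6% of all genes. The list's median log2 fold change was -0.06, against -0.05 for all genes.

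Between the ages the IgG retinas kept similar Col9a1 levels, with means of 171 ± 38 CPM at P19 and 172 ± 34.9 CPM at P17, and the control retinas did not. The 4 control retinas at P17 ran from 226 to 335 CPM, while the other 36 retinas of the study ran from 82.7 to 222 CPM with a median of 140.7 CPM. The same held in TPM, with 132 to 171 TPM in control P17 and 21.5 to 110.2 TPM in the other 36. The difference of the OIR effect between ages, P19 minus P17, was 1.18 ± 0.27 on the log2 scale with an adjusted p of 0.23 in edgeR; DESeq2 gave 1.19 with an adjusted p of 0.0022. Col8a1 (-1.39 ± 0.56, adjusted p 0.8) and Col8a2 (-1.44 ± 0.70, adjusted p 0.88) came next. Of the 44 chains, 0 were called in this test of the difference by edgeR, which called 0.00426% of all genes. Before adjustment 3 chains reached p under 0.05, against 5.68% of all genes.

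Counted without a model, Col2a1 and Col8a1 had all 4 OIR retinas above all 4 control retinas at P17, and Col9a1 had all 4 below. That is 3 of 44 chains, where 11.4% of all tested genes had groups that did not overlap. At P19, Col4a2 and Col27a1 had all 4 OIR retinas below all 4 control retinas, and no chain had them all above. That is 2 of 44, where the share among all tested genes was 11%.

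**Figure D3:**
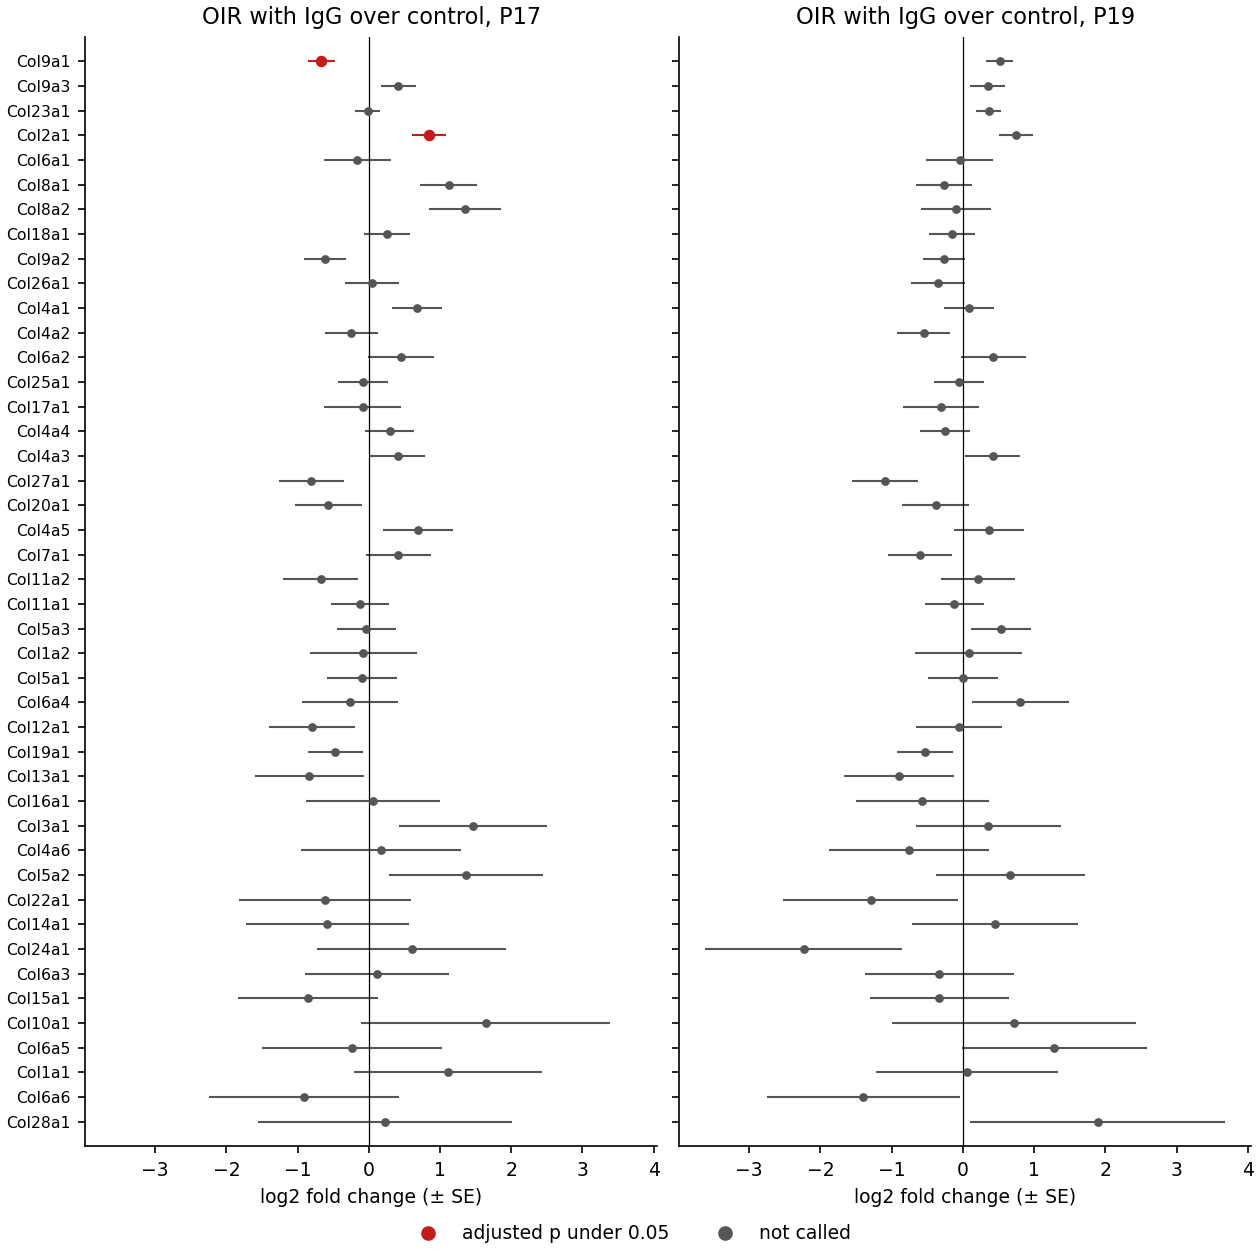
Log2 fold change (± SE) of each of the 44 chains in OIR with IgG over control at P17 (left) and P19 (right), chains ordered by median TPM. Red marks an adjusted p under 0.05, which Col9a1 (-0.67) and Col2a1 (0.85) have at P17 and no chain has at P19.

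Type VIII chains were the next in line at P17. Col8a1 (chr16:57624258-57754737) had 64.1, 49.8, 86.3 and 41.9 CPM in OIR with IgG, against 35.2, 30.7, 22.7 and 22.6 CPM in control retinas, without overlap (log2 fold change 1.12 ± 0.40, adjusted p 0.13). Col8a2 had 22.9, 31.6, 43.7 and 15.2 CPM in OIR with IgG, against 7.06, 17.4, 16.6 and 3.3 CPM in control retinas, with overlap (log2 fold change 1.35 ± 0.50, adjusted p 0.16). Neither passed the threshold, and at P19 the log2 fold changes were -0.27 ± 0.39 and -0.09 ± 0.49. The third uncalled chain in order of p at P17 was Col9a2, the remaining chain of type IX, with 10.03, 8.34, 12.3 and 13.4 CPM in OIR with IgG and 12.5, 15.7, 19.96 and 19.1 CPM in control retinas (log2 fold change -0.61 ± 0.29, adjusted p 0.3). Pigment epithelium RNA moved with them: its 10 markers summed to 1101 to 1949 CPM in OIR with IgG and 621 to 812 CPM in control retinas at P17, and 4 of the 10 were called higher. With the pigment epithelium, lens and fibroblast marker means as covariates, the log2 fold change of Col8a1 at P17 was -0.11 (adjusted p 1), and fitted to the compared groups alone it was 1.09 (adjusted p 0.013).

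Across the 40 retinas Col8a1, Col8a2 and Col9a3 tracked the pigment epithelium markers. The mean log2 CPM of these markers correlated with Col8a1 at Pearson's r = 0.868 and Spearman's rho = 0.87 (n = 40; permutation p of 1e-05 for each, the smallest that 100000 permutations can give; adjusted p 0.00062 for r and 0.00051 for rho over 616 relations of 44 chains with 14 marker lists). Without the 2 retinas farthest from the median of the marker mean r was 0.852, within groups it was 0.866, and within ages it was 0.963 at P17 and 0.822 at P19. For Col8a2, r was 0.83 and rho 0.847, with 0.838 without the 2 farthest retinas, 0.748 within groups, 0.851 at P17 and 0.827 at P19 (permutation p 1e-05, adjusted p 0.00062 for r and 0.00051 for rho). For Col9a3, r was 0.674 and rho 0.711, with 0.683 without the 2 farthest, 0.771 within groups, 0.816 at P17 and 0.71 at P19 (same permutation and adjusted p). Depth and tissue carried along with a retina are shared by all genes of a library. One marker of the list, Trpm1, is also a gene of bipolar cells. The same 3 chains also correlated with the 7 melanocyte markers, at r = 0.769 for Col8a1, 0.699 for Col8a2 and 0.623 for Col9a3. Within groups r was 0.842, 0.741 and 0.642 (permutation p over 40 retinas 1e-05 and adjusted p 0.00062 for each). Which of the 2 lists the chains follow was not tested.

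**Figure D4:**
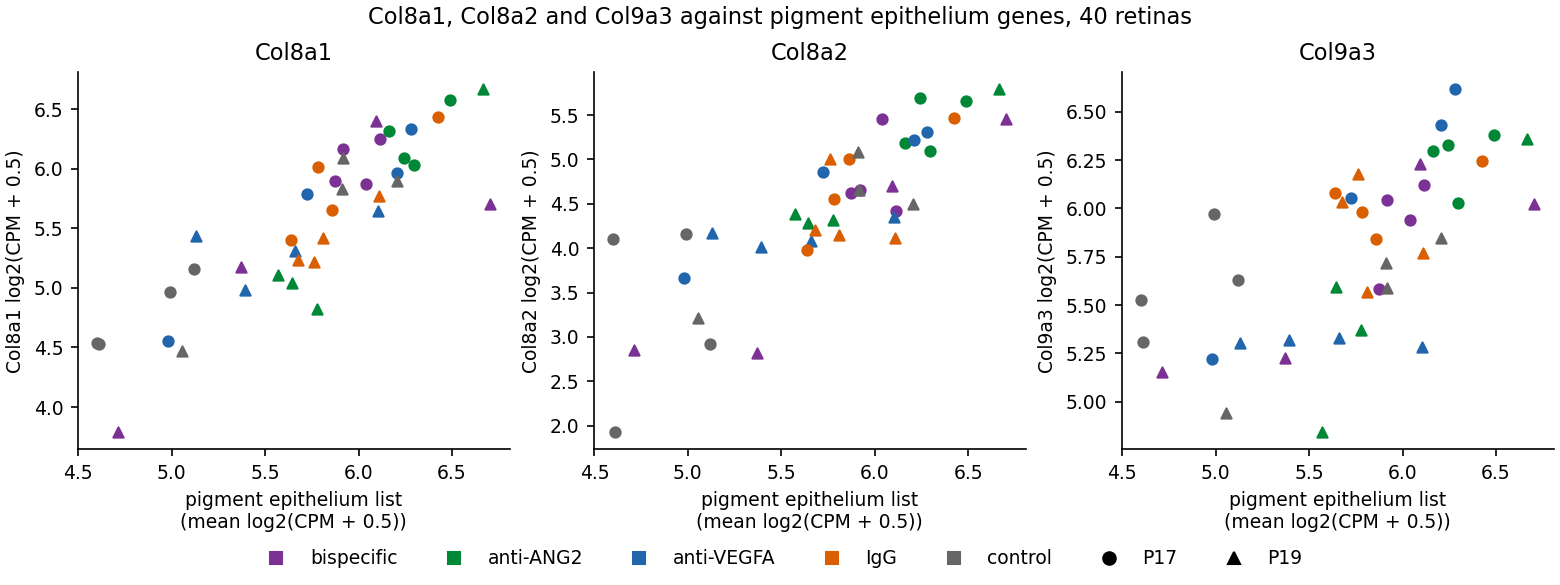
Col8a1, Col8a2 and Col9a3 (each as log2(CPM + 0.5)) against the mean log2(CPM + 0.5) of 10 pigment epithelium markers, 1 point a retina, coloured by treatment with circles for P17 and triangles for P19. Points of all groups lie along rising bands, with r = 0.868, 0.83 and 0.674.

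Col9a1 went with another list. Its highest correlation was with the 7 bipolar cell markers, at r = 0.791 and rho = 0.777 (n = 40, permutation p 1e-05, adjusted p 0.00062 for r and 0.00051 for rho). The value was 0.775 without the 2 farthest retinas, 0.677 within groups, 0.864 at P17 and 0.511 at P19. Next by r were the 6 amacrine cell markers, at r = 0.563 and rho = 0.52 (permutation p 0.00015 and 0.00067, adjusted p 0.0051 and 0.015). There r was 0.507 without the 2 farthest retinas, 0.567 within groups, 0.742 at P17 and 0.32 at P19. With the ciliary body markers r was 0.557 (permutation p 0.00023, adjusted p 0.0064) and rho 0.374 (permutation p 0.018, adjusted p 0.14), falling to 0.425 without the 2 farthest retinas and 0.097 within groups. Col2a1 correlated with the 10 endothelial markers at r = 0.541 and rho = 0.564 (permutation p 0.00031 and 0.00022, adjusted p 0.0076 and 0.0067), but at 0.126 within groups.

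The basement membrane chains Col4a1 and Col4a2 pair in the collagen of nearly all basement membranes and lie head to head, Col4a1 at chr8:11198423-11312826 on the minus strand and Col4a2 at chr8:11312805-11449287 on the plus strand. Their first exons share 22 bases on opposite strands. Both promoter windows are shown, since they overlap by 78 bases and the genes are read from them in opposite directions; each is written 5′ to 3′ on its own gene's strand, with the same motifs in capitals.
Col4a1 window, chr8:11312777-11313076, minus strand: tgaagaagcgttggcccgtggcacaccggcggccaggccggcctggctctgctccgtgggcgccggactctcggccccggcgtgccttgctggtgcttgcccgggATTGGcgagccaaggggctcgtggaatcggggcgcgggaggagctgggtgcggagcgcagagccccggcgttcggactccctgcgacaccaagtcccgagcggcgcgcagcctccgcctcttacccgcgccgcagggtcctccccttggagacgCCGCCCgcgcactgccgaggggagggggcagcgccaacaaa
Col4a2 window, chr8:11312555-11312854, plus strand: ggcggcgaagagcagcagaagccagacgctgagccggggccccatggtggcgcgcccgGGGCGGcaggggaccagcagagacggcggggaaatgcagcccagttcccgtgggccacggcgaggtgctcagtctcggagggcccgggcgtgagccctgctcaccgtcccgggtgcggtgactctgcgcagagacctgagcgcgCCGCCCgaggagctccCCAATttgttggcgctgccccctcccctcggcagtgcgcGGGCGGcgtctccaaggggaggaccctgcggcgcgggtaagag
The windows are 74.0% and 73.7% G and C, against a median of 52.7% over all promoters, and hold 37 and 33 CpGs. The Col4a1 window holds 1 GC box and 1 CCAAT box, and the Col4a2 window 3 GC boxes and 1 CCAAT box.

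In level the 2 genes were matched, with a median TPM ratio of 1.02 of Col4a1 over Col4a2, but retina by retina they went together loosely (r = 0.43, 0.23 within groups, n = 40, as a description). At P17 Col4a1 had 11.1, 18.8, 33 and 16.9 CPM with the bispecific antibody, 32.9, 34.2, 18.4 and 21.7 CPM with anti-ANG2, 19.9, 12.3, 24.4 and 36.5 CPM with anti-VEGFA, 20.2, 9.87, 22.8 and 29.8 CPM with IgG and 6.18, 11.4, 17 and 16.8 CPM in control retinas. The anti-ANG2 retinas lay above all 4 control retinas, and all other pairs of groups overlapped. At P19 it had 18.1, 11.3, 22.4 and 11.2 CPM with the bispecific antibody, 13.1, 13.3, 9.15 and 9.26 CPM with anti-ANG2, 12.2, 20.2, 8.36 and 7.9 CPM with anti-VEGFA, 11.8, 23.6, 15.4 and 16.1 CPM with IgG and 15.4, 12.8, 13.3 and 21.7 CPM in control retinas. The log2 fold change of OIR with IgG over control was 0.68 ± 0.35 at P17 (adjusted p 0.34) and 0.08 ± 0.35 at P19 (adjusted p 0.96).

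Col4a2 at P17 had 23.5, 21.3, 20.5 and 16.5 CPM with the bispecific antibody, 34.6, 18.2, 22.7 and 20.03 CPM with anti-ANG2, 12.5, 29.7, 16.6 and 30.9 CPM with anti-VEGFA, 16, 12.2, 12.6 and 15.4 CPM with IgG and 7.39, 21.1, 23.5 and 14.3 CPM in control retinas. All bispecific and all anti-ANG2 retinas lay above the 4 IgG retinas, narrowly for the bispecific antibody (lowest 16.52 CPM, against an IgG highest of 16.03 CPM). How many of all genes were without overlap in these comparisons was not counted. At P19 Col4a2 had 6.03, 13.6, 18.1 and 16.9 CPM with the bispecific antibody, 2.87, 13.6, 10.6 and 14.9 CPM with anti-ANG2, 10.3, 26.1, 7.73 and 15.2 CPM with anti-VEGFA, 7.35, 12.7, 14.4 and 13.7 CPM with IgG and 17.5, 19.98, 14.9 and 18.3 CPM in control retinas. There all IgG retinas (up to 14.42 CPM) and all anti-ANG2 retinas (up to 14.93 CPM) lay below the 4 control retinas (from 14.95 CPM). The OIR log2 fold changes were -0.24 ± 0.37 (adjusted p 0.82) and -0.55 ± 0.37 (adjusted p 0.59). Against IgG at P17 those of the bispecific antibody, anti-ANG2 and anti-VEGFA were 0.54 ± 0.37, 0.77 ± 0.37 and 0.68 ± 0.37 (adjusted p 1, 0.64 and 1). None passed the threshold.

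Col18a1, a chain of vessel and retinal basement membranes at chr10:77052178-77166548, had 19, 33.8, 30.5 and 17.3 CPM with the bispecific antibody, 28.4, 32.9, 41.5 and 38.1 CPM with anti-ANG2, 28.7, 33.3, 24.2 and 23.3 CPM with anti-VEGFA, 36.2, 24.1, 33.2 and 21 CPM with IgG and 24.5, 28.5, 19.96 and 22.6 CPM in control retinas at P17. At P19 the values were 18.7, 27.4, 12.2 and 38 CPM with the bispecific antibody, 16.6, 23.4, 10.6 and 27.9 CPM with anti-ANG2, 20.8, 22.4, 6.13 and 18.1 CPM with anti-VEGFA, 13.5, 22.4, 17.2 and 41.5 CPM with IgG and 20.2, 31.9, 24.8 and 28.2 CPM in control retinas. All groups overlapped at both ages. The OIR log2 fold change was 0.26 ± 0.32 at P17 and -0.15 ± 0.32 at P19 (adjusted p 0.77 and 0.91).

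The chains of stromal collagen gave few reads. Col1a1, a chain of type I collagen, had 0.579, 0.884, 0.61 and 0.43 CPM with the bispecific antibody, 0, 0.26, 1.91 and 1.48 CPM with anti-ANG2, 0.369, 0.254, 3.61 and 0.54 CPM with anti-VEGFA, 0.171, 0.765, 0.09 and 0.61 CPM with IgG and 0.471, 0.0888, 0.191 and 0 CPM in control retinas at P17. At P19 it had 0.262, 0.913, 0.175 and 0.0681 CPM with the bispecific antibody, 0.453, 0.884, 0.742 and 0.896 CPM with anti-ANG2, 0, 0, 0 and 0.219 CPM with anti-VEGFA, 0.65, 0, 1.52 and 0.203 CPM with IgG and 1.08, 0, 0.062 and 1.12 CPM in control retinas. It was at 0 in 7 of 40 retinas, and a count of 0 allows up to 0.116 to 0.328 CPM at the depths of these libraries, for counting error only. Its partner Col1a2 had 0.644, 3.54, 3.36 and 8.29 CPM with the bispecific antibody, 4.25, 1.5, 3.53 and 3.24 CPM with anti-ANG2, 1.11, 2.24, 11.7 and 1.03 CPM with anti-VEGFA, 3.08, 6.44, 4.28 and 5.61 CPM with IgG and 6.39, 4.93, 4.91 and 4.24 CPM in control retinas at P17. At P19 it had 4.26, 3.25, 1.14 and 2.66 CPM with the bispecific antibody, 3.7, 9.79, 2.14 and 3.17 CPM with anti-ANG2, 9.62, 13.1, 0.418 and 7.46 CPM with anti-VEGFA, 5.85, 4.07, 6.93 and 4.37 CPM with IgG and 11, 4.08, 0.062 and 4.89 CPM in control retinas. Although both chains build the same molecule, the median TPM ratio of Col1a1 over Col1a2 was 0.09.

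Col3a1, the chain of type III collagen, had 2.83, 2.81, 0.671 and 0.861 CPM with the bispecific antibody, 1.68, 2.41, 1.84 and 1.62 CPM with anti-ANG2, 1.35, 2.5, 9.44 and 2.27 CPM with anti-VEGFA, 0.857, 0.967, 3.65 and 2.68 CPM with IgG and 0, 2.04, 0.638 and 0.202 CPM in control retinas at P17. Its P19 values were 1.11, 0.513, 0.263 and 0.886 CPM with the bispecific antibody, 0, 0, 0.33 and 2.75 CPM with anti-ANG2, 1.71, 0, 0.139 and 0.439 CPM with anti-VEGFA, 1.56, 3.69, 0.788 and 2.64 CPM with IgG and 1.34, 0.599, 3.47 and 1.37 CPM in control retinas. In retina 3 of anti-VEGFA at P17, Col1a1, Col1a2 and Col3a1 were all the highest of their group. The OIR log2 fold changes at P17 were 1.11 ± 1.32 for Col1a1, -0.08 ± 0.75 for Col1a2 and 1.46 ± 1.04 for Col3a1 (adjusted p 0.76, 0.98 and 0.54), and at P19 they were 0.06 ± 1.27, 0.08 ± 0.75 and 0.36 ± 1.01 (adjusted p 0.99, 0.99 and 0.94). The standard errors are as large as most of these differences, and none passed the threshold.

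Other chains that share a molecule also differed in level. The median TPM ratio was 5.49 for Col6a1 over Col6a2 (r = 0.64 over retinas, 0.6 within groups), 1.72 for Col8a1 over Col8a2 (r = 0.78, 0.68 within groups), 0.99 for Col4a3 over Col4a4 (r = 0.42, 0.38 within groups) and 4.75 for Col4a5 over Col4a6 (r = -0.1, -0.02 within groups). Col9a1 exceeded Col9a2 by a ratio of 11.91 (r = 0.49, 0.39 within groups) and Col9a3 by 2.48 (r = 0.36, 0.4 within groups). These correlations are descriptions over 40 libraries that share depth and tissue between the genes. Reads in shared exons could be split differently by the counting: an exon of Col9a3 overlaps Tcfl5 on the other strand by 234 bases, and Tcfl5 itself averaged 0.899 CPM.

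The next comparisons ask whether neutralising VEGFA, ANG-2 or both alters the chains in OIR retinas, each against IgG of the same age. All 3 antibody groups of an age share the same 4 IgG retinas, so their values are given side by side only. At P17, 0 of 44 chains were called with the bispecific antibody (0.0% of all genes called), 0 with anti-ANG2 (0.0%) and 0 with anti-VEGFA (0.0%), and DESeq2 also called 0 in each. An unadjusted p under 0.05 was reached by 1, 5 and 2 chains, against 3.92%, 7.64% and 4.8% of all genes. The median log2 fold change of the chains was 0.26 with the bispecific antibody, 0.33 with anti-ANG2 and 0.41 with anti-VEGFA, while the medians of all genes were 0.01, 0.01 and -0.01. Of the 44 chains 28, 34 and 33 had a positive value. Over all settings tried the median ran from 0.09 to 0.27 with the bispecific antibody, 0.18 to 0.45 with anti-ANG2 and 0.22 to 0.65 with anti-VEGFA.

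At P17 Col11a2 had the smallest p with anti-ANG2 and with anti-VEGFA and the second smallest with the bispecific antibody. Col11a2, a chain of the minor fibril collagen type XI that is found with type II, had 9.59, 6.65, 4.58 and 5.38 CPM with the bispecific antibody, 7.66, 9.18, 10.5 and 11.1 CPM with anti-ANG2, 4.43, 7.7, 16.7 and 7.02 CPM with anti-VEGFA and 2.36, 3.62, 4.18 and 2.68 CPM with IgG. Its log2 fold changes were 1.02 ± 0.53, 1.58 ± 0.54 and 1.48 ± 0.53 (adjusted p 1, 0.52 and 0.99). With anti-ANG2 the next were Col6a1 (1.17 ± 0.47, adjusted p 0.58) and Col11a1 (0.88 ± 0.41, adjusted p 0.63), and with anti-VEGFA Col11a1 (0.87 ± 0.41) and Col19a1 (0.77 ± 0.39), both with an adjusted p of 1. With the bispecific antibody they were Col26a1 (0.81 ± 0.38) and, after Col11a2, Col6a1 (0.81 ± 0.47), both with an adjusted p of 1. Fitted to the compared groups alone, anti-ANG2 against IgG at P17 called Col6a1 (1.19, adjusted p 0.0021) and Col11a2 (1.59, adjusted p 0.017).

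**Figure D5:**
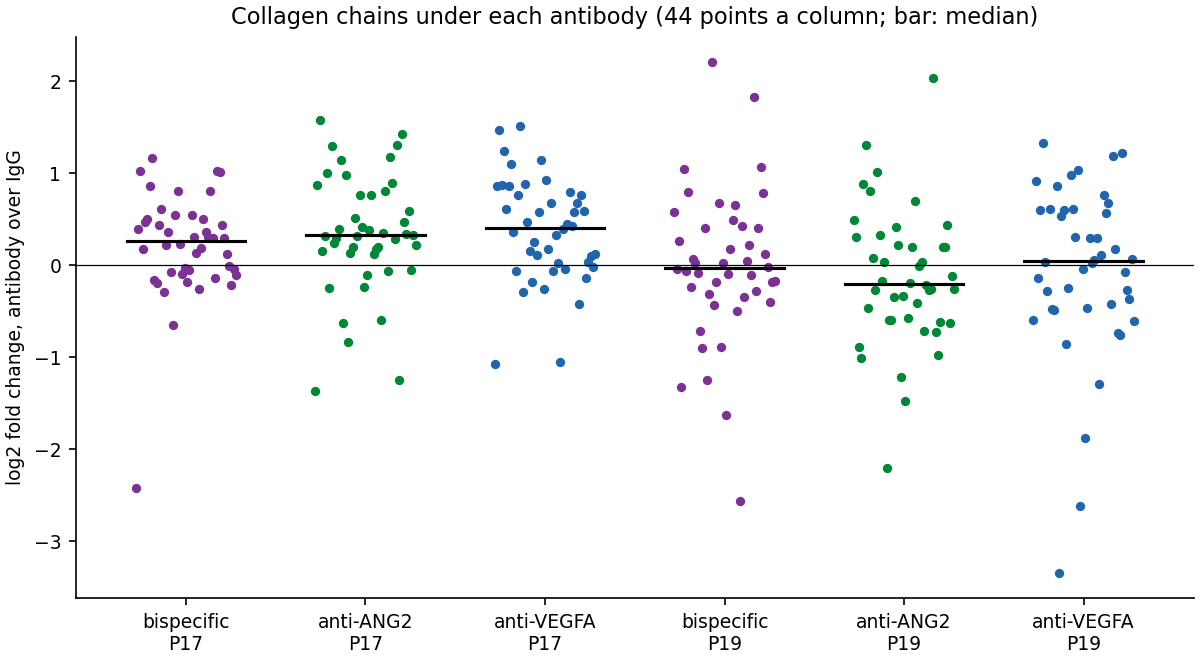
Log2 fold change of the 44 chains for each antibody over IgG at P17 and P19, 1 point a chain, with a bar at the median. The medians at P17 are 0.26 (bispecific), 0.33 (anti-ANG2) and 0.41 (anti-VEGFA), at P19 -0.03, -0.20 and 0.04 (edgeR), and no point has an adjusted p under 0.05.

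At P19, 0 of 44 chains were called with the bispecific antibody (0.0468% of all genes called), 0 with anti-ANG2 (0.0979%) and 0 with anti-VEGFA (0.0%). DESeq2 called 0 with the bispecific antibody, 1 with anti-ANG2 (Col9a1, log2 fold change -0.58, adjusted p 0.047) and 0 with anti-VEGFA. An unadjusted p under 0.05 was reached by 3, 3 and 6 chains, against 8.24%, 12.5% and 11.1% of all genes. The median log2 fold change was -0.03 with the bispecific antibody, -0.20 with anti-ANG2 and 0.04 with anti-VEGFA, against 0.03, 0.03 and 0.03 for all genes. Over all settings tried the median ran from -0.34 to 0.05 with the bispecific antibody, -0.28 to 0.0 with anti-ANG2 and -0.08 to 0.12 with anti-VEGFA, so its sign was not stable with the bispecific antibody or anti-VEGFA.

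Col9a1 at P19 had 122, 129, 145 and 125 CPM with the bispecific antibody, 82.7, 118, 101 and 140.4 CPM with anti-ANG2, 123, 126, 146 and 135 CPM with anti-VEGFA and 128, 206, 150.5 and 199 CPM with IgG. Its log2 fold changes against IgG were -0.39 ± 0.19, -0.63 ± 0.19 and -0.37 ± 0.19 (adjusted p 0.59, 0.15 and 0.46). With anti-ANG2, Col23a1 came next, at 59.9, 63.4, 85.7 and 109 CPM with anti-ANG2, against 104, 122, 112 and 139.8 CPM with IgG (log2 fold change -0.59 ± 0.18, adjusted p 0.15), and then Col19a1 (1.02 ± 0.39, adjusted p 0.25). Without retina 4 of the anti-ANG2 group both were called, Col23a1 at -0.78 (adjusted p 0.027) and Col9a1 at -0.77 (adjusted p 0.037). The 7 bipolar markers summed to 662 to 807 CPM with anti-ANG2, against 954.9 to 1040.0 CPM with IgG at P19, without overlap, and 1 of them was called lower. Over the 40 retinas these markers correlated with Col23a1 at r = 0.62 and rho = 0.587 (permutation p 6e-05 and 0.00012, adjusted p 0.0025 and 0.0046; 0.583 without the 2 farthest retinas, 0.51 within groups, 0.61 at P17 and 0.483 at P19), and with Col9a1 as given above. The 8 rod markers stood the other way at P19, with sums of 60730 to 84470 CPM with anti-ANG2 and 41660 to 58700 CPM with IgG. These sums did not overlap either, and 0 of the 8 were called. The part of bipolar and rod RNA in the 2 differences was not tested. With anti-VEGFA the smallest p-values were those of Col7a1, the anchoring fibril chain (1.22 ± 0.46, adjusted p 0.34), Col9a3 (-0.60 ± 0.25, adjusted p 0.38) and Col27a1 (1.04 ± 0.46, adjusted p 0.4).

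Col12a1, a FACIT chain of dense connective tissue, had the smallest p with the bispecific antibody at P19. It had 0.262, 0.171, 8.59 and 1.57 CPM in the bispecific group, against 4.55, 9.21, 5.41 and 6.7 CPM with IgG. Retina 3 of the bispecific group, 1 of the 4 libraries that correlated least with the rest, stood above 3 of the 4 IgG retinas, and its 3 companions lay below them all. With it the log2 fold change was -1.33 ± 0.63 (adjusted p 0.58), and without it -3.29 (adjusted p 0.023). The third smallest p was that of Col4a6, of basement membranes, at 0, 0.057, 0.964 and 0 CPM with the bispecific antibody, against 0.585, 1.78, 2.31 and 1.12 CPM with IgG (-2.56 ± 1.25, adjusted p 0.6). Col4a6 is X-linked, and the bispecific retinas carried Xist while the IgG retinas carried Y-linked counts. Sex and antibody therefore cannot be told apart between these groups. The chain stayed uncalled in 10 other settings, among them the fit with male markers as a covariate (log2 fold change -5.71 to -0.26 over these settings).

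No type II or type IV chain was called against IgG under any antibody by edgeR or DESeq2. Col2a1 at P17 had 79.6, 88.6, 156 and 145 CPM with the bispecific antibody, 115, 80.8, 97.8 and 113 CPM with anti-ANG2, 61, 128, 91.3 and 122 CPM with anti-VEGFA and, as given above, 93.9 to 142.6 CPM with IgG. At P19 it had 69.8, 68.1, 90.5 and 74.7 CPM with the bispecific antibody, 41, 70.2, 54 and 71.2 CPM with anti-ANG2, 71.6, 84.9, 57 and 76.4 CPM with anti-VEGFA and 45.6 to 102 CPM with IgG. All antibody groups overlapped the IgG groups. The log2 fold changes over IgG ran from -0.33 to 0.02 over both ages, with adjusted p-values of 0.61 to 1. The difference of an antibody's effect between ages (P19 minus P17) was called for 0 of 44 chains by edgeR with the bispecific antibody (0.0% of all genes), anti-ANG2 (0.0%) and anti-VEGFA (0.0%), and for 0 by DESeq2. Unadjusted, 0, 5 and 3 chains had p under 0.05. The smallest p-values were those of Col25a1 (-0.98 ± 0.50), Col26a1 (-0.99 ± 0.54) and Col12a1 (-1.50 ± 0.87) with the bispecific antibody, each with an adjusted p of 1. With anti-ANG2 they were those of Col11a2 (-2.46 ± 0.75, adjusted p 0.27), Col23a1 (-0.72 ± 0.25, 0.31) and Col9a1 (-0.58 ± 0.27, 0.42), and with anti-VEGFA those of Col1a1 (at 0 in 3 of 4 anti-VEGFA retinas at P19, so no fold is given), Col11a2 (-1.61 ± 0.74) and Col9a3 (-0.73 ± 0.35), each with an adjusted p of 1.

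Set against one another, the antibodies gave 0 calls among the chains in all 6 comparisons by edgeR and by DESeq2. The share of all genes called at P17 was 0.0% for bispecific against anti-ANG2, 0.0% for bispecific against anti-VEGFA and 0.0% for anti-VEGFA against anti-ANG2, and at P19 it was 0.0%, 0.0553% and 0.238%. Unadjusted, 0, 0 and 0 chains had p under 0.05 at P17, against 2.82%, 2.88% and 2.8% of all genes. At P19 the counts were 3, 4 and 4, against 11.6%, 9.44% and 16.8% of all genes. The chains with the smallest p at P19 were Col19a1 (-1.10 ± 0.40, adjusted p 0.23), Col11a2 (1.15 ± 0.54, 0.38) and Col4a6 (-2.56 ± 1.25, 0.42) for bispecific against anti-ANG2. For bispecific against anti-VEGFA they were Col12a1 (-1.93 ± 0.63, 0.27), Col25a1 (-1.05 ± 0.36, 0.3) and Col19a1 (-0.95 ± 0.40, 0.42), and for anti-VEGFA against anti-ANG2 Col25a1 (0.96 ± 0.36, 0.16), Col12a1 (1.60 ± 0.62, 0.18) and Col1a1 (adjusted p 0.2, with 3 of 4 anti-VEGFA retinas at 0). At P17 the adjusted p was 1 for all, led by Col6a5 (2.26 ± 1.33), Col20a1 (-0.76 ± 0.47) and Col18a1 (-0.49 ± 0.32) for bispecific against anti-ANG2, by Col26a1 (0.70 ± 0.38), Col9a1 (-0.31 ± 0.19) and Col20a1 (-0.66 ± 0.47) for bispecific against anti-VEGFA, and by Col5a3 (0.51 ± 0.42), Col8a1 (-0.48 ± 0.39) and Col9a2 (-0.35 ± 0.29) for anti-VEGFA against anti-ANG2. Without retina 3 of bispecific P19, bispecific against anti-VEGFA called Col12a1 (-3.89, adjusted p 0.0011), Col11a1 (-1.55, 0.046) and Col7a1 (-1.55, 0.042). Without retina 4 of anti-ANG2 P19, anti-VEGFA against anti-ANG2 called Col25a1 (1.39, 0.026).

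OIR retinas given an antibody were also set against control retinas of their age, which are the same 4 control retinas in each comparison and as in the IgG comparison. At P17 Col9a1 was lower than control in each: it had 94.7, 138, 193 and 168 CPM with the bispecific antibody, 144, 139, 187 and 196 CPM with anti-ANG2 and 168, 222, 154 and 192 CPM with anti-VEGFA, all below the control range of 226 to 335 CPM. The log2 fold change was -0.88 ± 0.19 with the bispecific antibody (adjusted p 0.0083), -0.71 ± 0.19 with anti-ANG2 (adjusted p 0.048) and -0.57 ± 0.19 with anti-VEGFA (adjusted p 0.18). It was the 1 chain called with the bispecific antibody, where 0.834% of all genes were called. With anti-ANG2 it was also the 1 chain called, where 0.953% of all genes were. With anti-VEGFA 0 chains were called by edgeR and 0 by DESeq2, while edgeR called 0.643% of all genes. Before adjustment 9 chains had p under 0.05 with anti-VEGFA, against 10.3% of all genes. The anti-ANG2 call was lost without any retina of either group but control retina 3 (adjusted p 0.044 without that retina, up to 0.23 without others), and the bispecific call was kept in 6 of 8 such fits (adjusted p 0.0033 to 0.079). Ciliary body markers summed to 9.4 to 14.2 CPM with the bispecific antibody, 11.6 to 14.5 CPM with anti-ANG2 and 9.41 to 13.4 CPM with anti-VEGFA at P17, against 24.4 to 78.2 CPM in control retinas. With their mean as a covariate the adjusted p was 0.23 with the bispecific antibody (log2 fold change -0.81) and 0.53 with anti-ANG2 (-0.64).

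The chains next in order at P17 were Col2a1 (0.82 ± 0.24, adjusted p 0.1) and Col8a1 (1.25 ± 0.40, 0.16) with the bispecific antibody, Col8a2 (1.94 ± 0.51, 0.059) and Col8a1 (1.46 ± 0.40, 0.072) with anti-ANG2, and Col8a2 (1.39 ± 0.51, 0.27) and Col2a1 (0.60 ± 0.24, 0.33) with anti-VEGFA. DESeq2 also called Col8a2 (1.92, adjusted p 0.01) and Col8a1 (1.44, adjusted p 0.013) with anti-ANG2. At P19, 0 of 44 chains were called with the bispecific antibody (0.443% of all genes), anti-ANG2 (10.7%) or anti-VEGFA (4.73%). Before adjustment 4, 1 and 3 chains had p under 0.05, against 10.8%, 22.3% and 17.5% of all genes. DESeq2 called Col2a1 at P19 with the bispecific antibody (0.81, adjusted p 0.039) and with anti-VEGFA (0.72, adjusted p 0.032), and 0 chains with anti-ANG2. In edgeR the smallest p-values at P19 were those of Col2a1 (0.77 ± 0.24, 0.15), Col4a6 (-3.32 ± 1.28, 0.29) and Col4a3 (0.91 ± 0.39, 0.36) with the bispecific antibody. With anti-ANG2 they were those of Col22a1 (-3.50 ± 1.37, 0.1), Col4a2 (-0.75 ± 0.37, 0.23) and Col24a1 (-2.82 ± 1.44, 0.24), and with anti-VEGFA those of Col2a1 (0.70 ± 0.24, 0.085), Col5a3 (1.11 ± 0.43, 0.13) and Col1a1 (adjusted p 0.23, with 3 of 4 anti-VEGFA retinas at 0). Without retina 3 of bispecific P19, Col12a1 (-3.35, adjusted p 0.0023) and Col4a6 (adjusted p 0.033, with 2 of the 3 retinas left at 0) were called, and without retina 4 of anti-ANG2 P19, Col3a1 (adjusted p 0.033, with 2 of the 3 retinas left at 0).

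Age was compared within each treatment, P19 over P17. In control retinas Col9a1 fell to 92.7, 141, 108 and 136 CPM at P19, against 272, 335, 226 and 258 CPM at P17, without overlap (log2 fold change -1.19 ± 0.19, adjusted p 0.0017). It was the 1 chain called there, where 0.0979% of all genes were called. The call was kept without any single one of the 8 retinas (adjusted p 0.00069 to 0.017). Ciliary body markers summed to 5.29 to 26.2 CPM at P19 and 24.4 to 78.2 CPM at P17 in control retinas. With their mean as a covariate the log2 fold change was -1.11 and the adjusted p 0.46. The 7 bipolar markers summed to 853.5 to 992 CPM at P19 and 1024 to 1318 CPM at P17, without overlap, and 0 of them had a positive log2 fold change. The 8 rod markers summed to 48230 to 54710 CPM at P19 and 31290 to 39200 CPM at P17, and 3 of them were called higher. The part of bipolar and rod RNA was not tested. Col2a1 (-0.58 ± 0.24, adjusted p 0.64) and Col5a3 (-0.98 ± 0.43, 0.69) were next.

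In the anti-ANG2 group 3 chains were lower at P19. Col4a1 had 13.1, 13.3, 9.15 and 9.26 CPM at P19, against 32.9, 34.2, 18.4 and 21.7 CPM at P17 (log2 fold change -1.26 ± 0.36, adjusted p 0.03). Col23a1 had 59.9, 63.4, 85.7 and 109 CPM at P19, against 111, 120.1, 125 and 130.0 CPM at P17 (-0.61 ± 0.18, adjusted p 0.037), and Col2a1 had 41, 70.2, 54 and 71.2 CPM at P19, against 115, 80.8, 97.8 and 113 CPM at P17 (-0.78 ± 0.24, adjusted p 0.049). How many of all genes were without overlap between the ages was not counted. The ages did not overlap in any of the 3 chains, but these were picked by their calls on the same values. These are 3 of 44 chains where 4.83% of all genes were called, and the median log2 fold change of the 44 chains was -0.52, against -0.05 for all genes. All 3 calls depended on single retinas: with 1 retina left out the adjusted p reached 0.11 for Col4a1, 0.24 for Col23a1 and 0.28 for Col2a1. Without retina 4 of anti-ANG2 P19 10 chains were called, all lower. The share of all genes called in that fit is not given here, and the 4.83% belongs to the fit with all retinas. The 8 rod markers summed to 60730 to 84470 CPM at P19 and 35460 to 43890 CPM at P17 in this group, and 6 of them were called higher. Sex differed too, since all 4 anti-ANG2 retinas at P17 lacked Y-linked counts, while the 4 male markers summed to 0.299 to 164 CPM over those at P19. With the male markers as a covariate the log2 fold changes were -1.04 for Col4a1 (adjusted p 0.2), -0.53 for Col23a1 (adjusted p 0.18) and -0.82 for Col2a1 (adjusted p 0.13). The 7 bipolar markers summed to 662 to 807 CPM at P19 and 788 to 1022 CPM at P17, and 2 of them were called lower. The part of rod and bipolar RNA was not tested.

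In the other 3 treatments 0 of 44 chains were called between the ages by edgeR and by DESeq2: with the bispecific antibody 0.0298% of all genes were called, with anti-VEGFA 0.0% and with IgG 0.00851%. Unadjusted, 3, 8 and 1 chains had p under 0.05, against 5.78%, 9.11% and 4.69% of all genes. The chains with the smallest p were Col26a1 (-1.04 ± 0.38, adjusted p 0.64), Col2a1 (-0.63 ± 0.24, 0.68) and Col4a6 (-2.93 ± 1.26, 0.75) with the bispecific antibody. With anti-VEGFA they were Col9a3 (-0.87 ± 0.25, 0.28), Col1a1 (adjusted p 0.38, with 3 of 4 retinas at P19 at 0) and Col4a1 (-0.94 ± 0.35, 0.4), and with IgG Col2a1 (-0.69 ± 0.24), Col11a2 (0.96 ± 0.53) and Col6a3 (-1.65 ± 1.05), each with an adjusted p of 1. Without retina 3 of bispecific P19, Col12a1 was called in that group (-3.17, adjusted p 0.026). Col2a1 had a negative log2 fold change from P17 to P19 in all 5 treatments.

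Genes that work with collagen were read as a list of 57: 17 that fold and modify chains, 12 that cut and cross-link them, 9 receptors and 19 partners in basement membranes such as laminins and nidogens. All passed the filter. At P17, 5 of 57 were higher and 0 lower in OIR with IgG than in control retinas, where 2.36% of all genes were called, with a median log2 fold change of 0.17 over the list and -0.05 over all genes. Pcolce, which speeds the trimming of procollagen ends, had 14.7, 45, 42.8 and 25.2 CPM in OIR with IgG, against 4.24, 7.41, 7.02 and 3.37 CPM in control retinas, without overlap (log2 fold change 2.53 ± 0.46, adjusted p 0.0009). Plod1, a lysyl hydroxylase that prepares chains for cross-linking, had 32, 42.1, 36 and 30.9 CPM in OIR with IgG, against 12.7, 13.8, 22.6 and 19.1 CPM in control retinas, without overlap (1.05 ± 0.24, adjusted p 0.01). Itgb1, the beta subunit of the collagen-binding integrins, had 100.1, 95.8, 86.9 and 85 CPM in OIR with IgG, against 54, 63, 43.8 and 48.5 CPM in control retinas, without overlap (0.81 ± 0.20, adjusted p 0.015). Mrc2, an endocytic collagen receptor, had 3.9, 5.28, 0.135 and 1.22 CPM in OIR with IgG, against 0.336, 0.0444, 0.128 and 0.269 CPM in control retinas, with 1 OIR retina inside the control range (3.76 ± 0.95, adjusted p 0.022). The fifth was Lair1, a collagen receptor of immune cells, at 13.1, 9.42, 11 and 14.3 CPM in OIR with IgG, against 3.63, 5.24, 6.95 and 5.32 CPM in control retinas (1.18 ± 0.31, adjusted p 0.027). Microglia markers, 6 in all, summed to 177 to 288 CPM in OIR with IgG and 59.3 to 89.1 CPM in control retinas at P17, and pigment epithelium markers differed as given above; their part in these 5 genes was not tested.

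In OIR with IgG against control at P19 0 of 57 were called by edgeR, with 10 at p under 0.05 before adjustment, a level that 12.6% of all genes reached. In the 6 comparisons of an antibody with IgG 0 of 57 were called as well. Before adjustment, 1, 4 and 2 had p under 0.05 at P17 with the bispecific antibody, anti-ANG2 and anti-VEGFA, against 3.92%, 7.64% and 4.8% of all genes, and 4, 11 and 6 at P19, against 8.24%, 12.5% and 11.1%. At P19 the smallest p in OIR with IgG was that of Serpinh1, the collagen chaperone, which had 40.3, 37.6, 30.2 and 39.8 CPM in OIR with IgG, against 14.8, 21.6, 17.8 and 24.2 CPM in control retinas, without overlap (0.91 ± 0.24, adjusted p 0.051). Against IgG at P17 it was that of Plod3 with the bispecific antibody (-1.08 ± 0.29, adjusted p 1), P3h3 with anti-ANG2 (0.90 ± 0.30, 0.52) and Lamb3 with anti-VEGFA (adjusted p 1; 0.123, 0.804, 0 and 0.216 CPM with anti-VEGFA, and 0 in all 4 IgG retinas). At P19 it was that of Crtap with the bispecific antibody (-0.83 ± 0.35, 0.54), Colgalt2 with anti-ANG2 (-1.62 ± 0.38, 0.083) and Serpinh1 with anti-VEGFA (-0.73 ± 0.24, 0.31). Against control at P17, 2 of 57 were higher with the bispecific antibody (0.834% of all genes called), 3 with anti-ANG2 (0.953%) and 2 with anti-VEGFA (0.643%), and 0 were lower. Pcolce was among them each time (log2 fold change 2.53 ± 0.46, 2.67 ± 0.46 and 1.98 ± 0.45, adjusted p 0.0014, 0.00081 and 0.023), as was Mrc2 (4.15 ± 0.96, 3.97 ± 0.96 and 4.13 ± 0.96, adjusted p 0.019, 0.027 and 0.026); all 3 comparisons use the same control retinas. With anti-ANG2 the third was Lair1 (1.52 ± 0.31, adjusted p 0.0063). Against control at P19, 4 were higher and 1 lower with anti-ANG2, which is 8.77% of the list where 10.7% of all genes were called. The 4 were Ppib, a prolyl isomerase of collagen folding (0.73 ± 0.15, adjusted p 0.001), Pcolce (1.45 ± 0.44, 0.025), the collagen-binding protein Sparc (0.63 ± 0.20, 0.03) and Serpinh1 (0.72 ± 0.24, 0.046), and the lower one was Colgalt2, a collagen galactosyltransferase (-1.38 ± 0.38, 0.013). At P19 0 were called with the bispecific antibody or anti-VEGFA by edgeR. Before adjustment 8 and 8 had p under 0.05, against 10.8% and 17.5% of all genes. Between the ages, 6 of 57 were lower at P19 in the anti-ANG2 group, against 4.83% of all genes called. The smallest p-values of the 6 belonged to the proteoglycan agrin, Agrn (-1.23 ± 0.25, adjusted p 0.0051), fibronectin, Fn1 (-1.70 ± 0.35, 0.0053), the cross-linking enzyme Loxl2 (-1.57 ± 0.38, 0.011) and Itgb1 (-0.76 ± 0.20, 0.019); the other 2 were P3h3 and P4ha2, of the prolyl hydroxylase families.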

How the data were processed

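Libraries of 40 whole retinas, 1 retina each, were made with SMART-Seq mRNA and Nextera XT kits, per the labels' protocols. Reads were aligned to GRCm38.p4 with STAR 2.7.10a and quantified with RSEM 1.3.3, per the submitters' processing notes. The gene annotation and strand setting are not given in the sources used here. The deposited table holds the authors' expected counts per gene symbol, of which 15.7% of values above 0 were not whole, and a second table their TPM, scaled to gene length and library. Genome positions are those of the GENCODE annotation of GRCm38, and promoter sequences those of RefSeq. The labels name no molecular identifiers, so floors cover counting error only.

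Expected counts were rounded and tested with edgeR 4.0.16 (R 4.3.3): TMM factors, 1 model of all 10 groups, robust quasi-likelihood fits and Benjamini-Hochberg adjustment over the 23495 of 42037 symbols that passed filterByExpr. Calls have an adjusted p under 0.05. CPM values use TMM library sizes. Collagen chains (by a rule on symbols alone), pathway genes and marker lists were chosen with earlier results of these data known. Values in every library are given for chains called in a comparison with IgG or of IgG with control and always for Col4a1, Col4a2, Col1a1, Col1a2, Col3a1 and Col18a1, and where fewer than 3 chains were called, the 3 with the smallest p are named. In those comparisons up to 4 called pathway genes are named, or the 1 with the smallest p; Lair1 and the pathway genes named in the other comparisons were added after their values were seen. Alternatives were DESeq2 1.42.0, RLE factors, no count filter, the compared groups alone, limma 3.58.1 on log2(TPM + 1), a replicate block, marker means as covariates and leaving out each retina. The ciliary body covariate and the fit without 4 libraries were chosen after seeing the data. Rows for further copies of Col11a2 and Col16a1 were left out, and RefSeq promoters were matched by symbol.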

Additional observations from a re-analysis of the deposited data

Results flagged for a closer look

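Among 100 groups of 4 retinas examined (10 chains in 10 groups), 9 held a retina whose distance to its nearest neighbour took up nearly the whole range of its group. For independent, normally distributed values chance alone gives about 1 in 20. Low counts and chains measured in the same retina do not meet these terms, so the 9 cannot be weighed against that rate. In the anti-VEGFA group at P17, retina 3 was such a retina for 3 stromal chains, with 3.61 CPM of Col1a1, 11.7 CPM of Col1a2 and 9.44 CPM of Col3a1. At P19, retina 4 of the anti-VEGFA group was the only one of its group with Col1a1 reads, at 0.219 CPM, and retina 4 of the anti-ANG2 group stood apart with 2.75 CPM of Col3a1. For type VIII chains, retina 2 of the anti-ANG2 group at P19 had 101 CPM of Col8a1 and 54.8 CPM of Col8a2, retina 2 of the bispecific group at P17 had 43.3 CPM of Col8a2, and retina 4 of the IgG group at P19 had 31.6 CPM of Col8a2. Outside the 44 chains, a row for a further copy of Col16a1 reached 0.418 CPM in retina 3 of the anti-VEGFA group at P19, where all control retinas had 0.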

How the results depend on the processing

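The 2 calls in OIR with IgG against control at P17 became 3 with the compared groups alone, which added Col8a1, 1 with RLE factors, 1 without the count filter, 1 with limma on TPM, 1 without the 4 libraries of low correlation, 0 with the ciliary body covariate and 0 with the pigment epithelium, lens and fibroblast covariates. With these 3 covariates Col9a1 was at -0.80 (adjusted p 0.41) and Col8a1 turned to -0.114. Leaving out 1 retina left 0 to 1. Against IgG, anti-ANG2 at P17 had 2 calls instead of 0 with the compared groups alone, anti-ANG2 at P19 had 1 with DESeq2 and 1 with limma on TPM (0 to 2 with 1 retina left out), and the bispecific antibody at P19 had 1 without the 4 libraries (0 to 1 with 1 retina left out). The other 4 of these 8 comparisons kept 0 calls in every setting. The 2 calls summed over antibody-treated OIR against control became 0 (ciliary body), 1 (male markers), 1 (pigment epithelium, lens and fibroblast), 4 (without the 4 libraries), 6 (DESeq2) and 8 (limma), and 0 to 4 with 1 retina left out. The 4 calls summed over P19 against P17 became 1 (male markers), 2 each (no filter, ciliary body, without the 4 libraries), 7 (DESeq2) and 12 (limma), and 1 to 11 with 1 retina left out. Antibody against antibody gave 2 calls without the 4 libraries and 0 to 3 with 1 retina left out, and the differences between ages 1 with DESeq2 and 0 with any retina left out. Replicate numbers did not pair the retinas (mean r of same-numbered deviations 0.024, 23 of 80 pairs over 0.1, against -0.008 for other pairs). With the replicate block OIR at P17 kept 2 calls, antibody-treated OIR against control had 6 and P19 against P17 had 8. Over all genes, OIR with IgG against control at P17 had 555 calls, 21 with the pigment epithelium, lens and fibroblast covariates, 347 with the ciliary body covariate and 1021 with DESeq2; limma on TPM moved the median of all genes to -0.22, against -0.05. The cause of these shifts was not tested. For the other comparisons the calls over all genes in each setting are not given. The chain counts there can therefore not be set against the shift of all genes. Stromal chains under 1 CPM rest on few reads.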
